A study of Mus musculus with 20 samples.

Results

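The genes of the cytosolic ribosomal proteins were followed across 20 microarrays of mouse lung. A gene was taken as a member when the array's annotation names it Rpl or Rps with a number, or Rplp0, Rplp1, Rplp2 or Rpsa. The Rps6 kinase genes were left out, and a probe had to be detected (detection p under 0.05) on at least 3 of the 20 arrays. Of 64 such genes on the array, 61 passed, out of 11196 named genes that passed. They comprise 29 genes of the large subunit, 23 of the small subunit, the stalk genes Rplp0 and Rplp1, 5 paralogs of subunit genes (Rpl3l, Rpl7l1, Rpl22l1, Rpl36al and Rps27l) and 2 genes that encode no subunit (Rps19bp1 and Rps23rg1). The other 3, Rplp2, Rpl6 and the paralog gene Rpl39l, each had 1 probe, detected on 0 arrays. Whether these probes report their mRNAs was not tested, so this does not show that the genes are silent in lung. Of 77 large subunit, small subunit and stalk genes in a fixed list, 56 were found by symbol on the array and 54 passed. The members are thus a part of the ribosomal protein genes. The rule uses symbols and detection and no measured change, but it was set with earlier results of these data known.

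The lungs came from male AKR/J mice, an inbred strain, that were 6 to 8 weeks of age at the start. The RA group (n = 7) breathed filtered room air, and the RA_Los group (n = 3) did so with losartan in the drinking water. The CS group (n = 7) was put in cigarette smoke for 2 h a day on 5 days a week at a mean carbon monoxide level of 350 ppm, and the CS_Los group (n = 3) had smoke and losartan. Losartan, which blocks the type 1 receptor of angiotensin II, was given at 0.6 g/L. The protocol gives 6 to 7 weeks of smoke and the design text 2 months. By the batch label, all 4 groups have 3 arrays each in batch 1, and batch 2 adds 4 of RA and 4 of CS. Replicates are numbered, but nothing states that each is a separate mouse, so a p-value here reflects only the scatter among these samples. The comparisons ask how smoke and losartan, alone and together, changed the lung.

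A cytosolic ribosome has a small subunit, which holds the mRNA and reads its codons, and a large subunit, which joins the amino acids. Each is built in the nucleolus from ribosomal RNA and about equal numbers of copies of its proteins, so the genes for these proteins are transcribed at high levels in most cells, lung included. Their mRNAs begin with a run of pyrimidines, the 5′ terminal oligopyrimidine tract, through which mTOR signalling sets how fast they are translated. An array measures the mRNA amount and not that translation step, and in whole lung fewer cells of a type and less RNA per cell cannot be told apart.

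The starts of 6 genes are shown because the tract lies there. They are the 2 members with the lowest and the 2 with the highest difference between smoke and room air among those with a promoter at hand, and Rps6 and Rplp0. Each run covers 40 bases before to 10 bases from the RefSeq transcription start on GRCm38.p6, 5′ to 3′ on the gene's strand, and capitals mark a run of at least 5 pyrimidines within 5 bases of the start.
Rps6, chr4:86857358-86857407, minus strand: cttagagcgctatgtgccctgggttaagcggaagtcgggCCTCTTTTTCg
Rpl14, chr9:120571477-120571526, plus strand: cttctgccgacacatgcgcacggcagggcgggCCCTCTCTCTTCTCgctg
Rplp0, chr5:115559427-115559476, plus strand: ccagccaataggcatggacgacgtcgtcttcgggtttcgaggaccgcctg
Rpl36a, chrX:134585614-134585663, plus strand: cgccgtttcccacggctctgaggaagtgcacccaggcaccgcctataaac
Rps19bp1, chr15:80264297-80264346, minus strand: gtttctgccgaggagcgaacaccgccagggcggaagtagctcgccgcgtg
Rpl3l, chr17:24727786-24727835, plus strand: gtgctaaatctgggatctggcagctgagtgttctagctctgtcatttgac
The marked run was 10 bases long in Rps6 and 14 in Rpl14, and the other 4 annotated starts had none in this window. It began at base -1 in Rps6 and base -8 in Rpl14, before the annotated start. These are therefore lengths of the run in the DNA, and only the part from the start on would lie in the annotated mRNA. Where a gene had several annotated starts, the one farthest upstream is shown. In Rpl36a the letters TATAAA lie just after that start. Which start is used in lung was not tested, so these stretches do not show that an mRNA lacks the tract.

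Promoters of 250 bases before to 50 after the start were at hand for 53 of the 61 members, 63 promoters in all. A pyrimidine run within 5 bases of the start, on either side, was present in 46.0% of them and in 31.4% of all 32851 promoters. The letters ACTTCCG, bound by GABP, stood on either strand in 33.3% of the members' promoters and in 6.42% of all. AAGATGG, bound by YY1, stood in 12 of the 63 and in 6.34% of all, and the SP1 letters GGGCGG in 61.9% of the members' promoters and 35.7% of all. The TATA letters TATAAA stood in 9.52% of the members' promoters and 13.6% of all. None of the 4 motifs contains another, and a match is a description of the sequence, not of binding.

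The members were among the brightest features. Of the 61, 44 lay in the brightest 10% of the 12719 features tested (1 probe for each named gene, and 1523 unnamed features) and 22 in the brightest 1%, and 56 were detected on all 20 arrays. Rpsa, the laminin receptor gene whose product also sits in the small subunit, was detected on 11 arrays, Rps23rg1 on 10 and Rps23 on 5. The batches differed in signal. The median probe signal was 57.2 to 72.3 in batch 1 and 87.4 to 100.4 in batch 2, and the brightest member reached 27906.8 to 33369.3 and 47274.9 to 54828.7. Together the members gave 5.76% to 6.81% of an array's summed signal in batch 1 and 6.28% to 7.28% in batch 2. Lung identity was clear from 8 of 8 epithelial marker genes, each detected in every group, with a mean log2 signal of 12.48 to 13.05. Signals below are log2 values after background correction and quantile normalization, and they are compared only within a probe.

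Smoke left the ribosomal protein genes within a narrow range of their room air values. Over 7 CS and 7 RA arrays, with batch as a term, 0 of the 61 members passed the threshold (limma, adjusted p under 0.05 over all features), whereas 12.8% of all features did (6.09% higher and 6.73% lower). At an unadjusted p under 0.05 there was 1 member, Rps19bp1, against 26.8% of features. The changes ran from -0.35 to 0.26 in log2 with a median of 0.06, against -0.0048 for all features. The 95% interval of the change lay inside 1.5-fold in both directions for 58 members, or 95.1%, against 87.9% of all features and 93.6% of features of the brightest 10% that are no members. Inside 1.25-fold it lay for 49 members, or 80.3%, against 46.5% and 67.7%. These bright features were not matched to the members in brightness, as 22 of the 61 members lay in the brightest 1%. The 3 members whose interval reached past 1.5-fold were Rpl3l, Rpl21 and Rps19bp1.

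**Figure D1:**
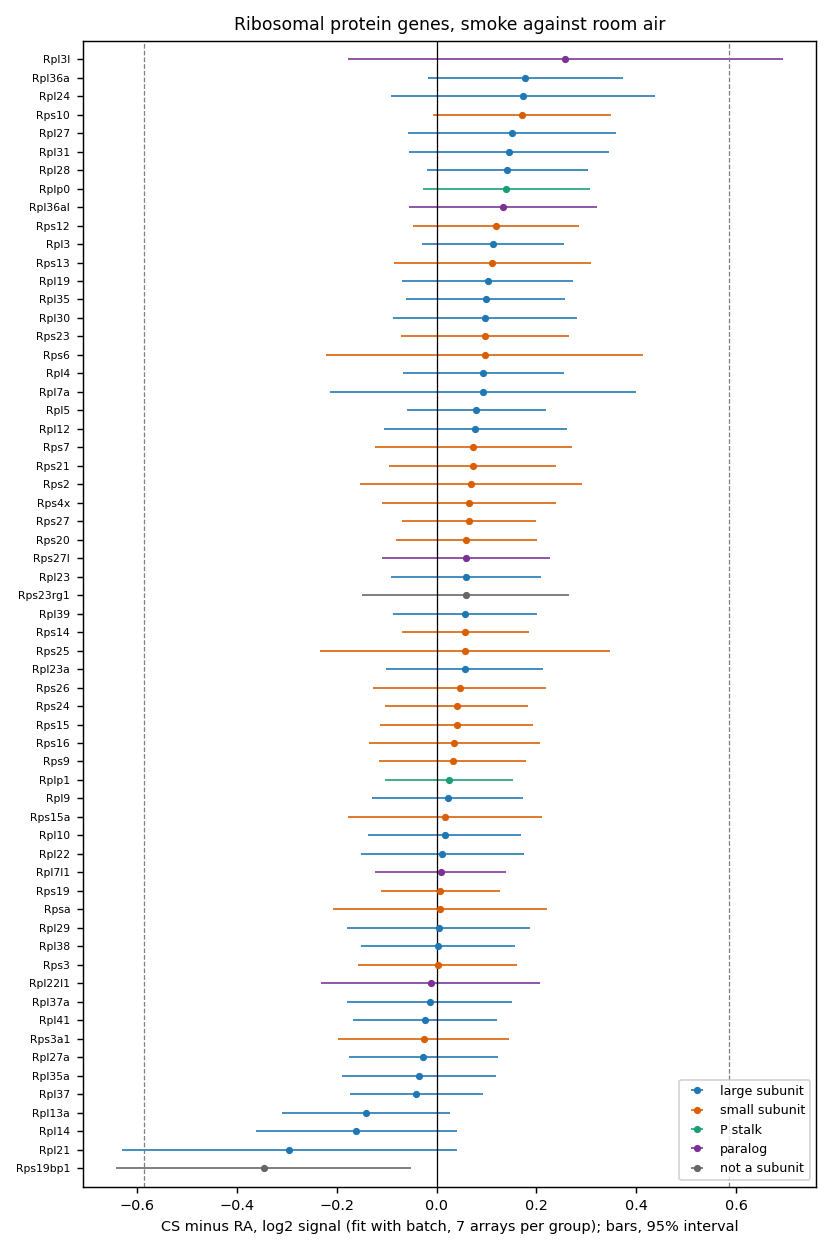
Difference between CS and RA in log2 signal for each of the 61 ribosomal protein genes (points) with its 95% interval (bars), from the fit with batch over 7 arrays per group. Dashed lines mark 1.5-fold in either direction, and 58 of the 61 intervals lie between them.

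Among large subunit genes 21 of 29 had a change above 0, and among small subunit genes 22 of 23, with medians of 0.06 in both. None of these passed. The highest statistics belonged to Rps10, a small subunit protein near the mRNA entry, and to Rpl36a, Rpl28 and Rplp0. In RA the Rps10 signal was 11.53, 11.43 and 11.62 in batch 1 and 12.28, 12.29, 12.09 and 12.54 in batch 2. In CS it was 11.84, 11.97 and 11.66 in batch 1 and 12.31, 12.29, 12.39 and 12.52 in batch 2. The groups were apart in batch 1 and overlapped in batch 2, and the change of 0.17 ± 0.08 (SE, n = 7 per group) did not pass (limma, adjusted p = 0.204). Rpl36a, a large subunit protein near the exit site for tRNA, differed by 0.18 ± 0.09 (adjusted p = 0.230). Rpl28, of the large subunit, differed by 0.14 ± 0.08 (adjusted p = 0.248).

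The lowest statistics belonged to Rps19bp1, Rpl21, Rpl13a and Rpl14. Rps19bp1, whose nucleolar product binds Rps19 and the deacetylase Sirt1, read 5.83, 6.29 and 6.07 in RA of batch 1 and 6.17, 6.42, 6.09 and 6.36 in RA of batch 2. In CS it read 4.96, 6.04 and 5.86 in batch 1 and 6.05, 5.95, 6.15 and 5.79 in batch 2. CS 1 was the lowest array, and the groups overlapped in each batch. The change of -0.35 ± 0.14 did not pass (limma, adjusted p = 0.117), and without CS 1 it was -0.21 (adjusted p = 0.142). Rpl21, of the large subunit, gave 6.17, 6.06 and 5.91 in RA and 4.82, 5.85 and 6.10 in CS of batch 1. There again CS 1 lay below the rest, and the change of -0.29 ± 0.16 (adjusted p = 0.251) was -0.13 without it. The Rps19bp1 probe and this Rpl21 probe were detected on all 7 RA arrays and missed on 1 of the 7 in CS. A second, dimmer Rpl21 probe, detected on 15 arrays, gave -0.26 ± 0.10 (limma over all kept probes, adjusted p = 0.0996). Rpl13a, a large subunit protein that also takes part in translational silencing of inflammatory mRNAs, differed by -0.14 ± 0.08 (adjusted p = 0.271). In batch 2 it read 9.65, 9.63, 9.37 and 9.64 in RA and 9.28, 9.20, 9.44 and 9.43 in CS. The lowest RA array lay below the upper 2 CS arrays there, and in batch 1 the change was -0.02. Rpl14, of the large subunit, differed by -0.16 ± 0.10 (adjusted p = 0.302).

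The genes singled out for their roles showed the same small differences. Rplp0, the stalk base that recruits elongation factors and a common reference gene in PCR, differed by 0.14 ± 0.08 (limma, adjusted p = 0.276), with 7.61 to 8.07 (median 7.76) in RA and 7.75 to 8.03 (median 7.94) in CS. Its stalk partner Rplp1 differed by 0.03 ± 0.06 (adjusted p = 0.839), and several of its values are equal because quantile normalization gives equal ranks equal values. Rps6, the small subunit protein phosphorylated by S6 kinase below mTOR, differed by 0.10 ± 0.15 (adjusted p = 0.733). Rpl5, which carries 5S RNA into the large subunit, differed by 0.08 ± 0.07 (adjusted p = 0.480). Rpsa differed by 0.01 ± 0.10 (adjusted p = 0.972), and Rps23rg1, a retroposed copy of Rps23 detected on arrays of batch 1 only, by 0.06 ± 0.10 (adjusted p = 0.753). Rpsa was detected on 4 of the 7 RA and 3 of the 7 CS arrays, and Rps23rg1 on 2 and 3. Many values of these 2 genes thus lie at background, and their small differences say little about the mRNA.

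Within batch 1 the median of the members was 0.08 with 46 of 61 above 0, and 0 passed (0.00786% of features). At an unadjusted p under 0.05 there was 1 member, Rps10 (0.30 ± 0.14, limma, adjusted p = 0.628), against 7.85% of features. The 3 CS arrays lay above the 3 RA arrays in 6 members (Rps10, Rplp0, Rpl3, Rpl19, Rpl36al and Rps27) and below in 0, while 9.94% and 10% of features were apart in these directions. Within batch 2 the median was 0.03 with 41 above 0, and 0 passed (5.51% of features, 2.42% higher and 3.09% lower). At an unadjusted p under 0.05 there were 2 members, Rps19bp1 (-0.27 ± 0.11, limma, adjusted p = 0.180) and Rpl13a (-0.24 ± 0.10, adjusted p = 0.203), against 20.8% of features. No member had its 4 CS arrays apart from its 4 RA arrays, against 6.22% of features above and 7.12% below. The interaction of smoke with batch, which tests the difference between the batches, passed for 0 members (0.0157% of features), with 0 at an unadjusted p under 0.05 against 4.65%.

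The sign of the members' median depended on how the arrays were scaled. With quantile normalization it was 0.06, with cyclic loess 0.07 and with centring on bright features that are no members 0.04. Centring each array on its 75th percentile gave -0.03, centring on its median -0.06, no scaling -0.03 and the authors' log2 values -0.01. Members above 0 numbered 50 with quantile normalization and 15 with median centring. Set against the median of all features under the same scaling, the members' median stood at 0.06 with quantile normalization, 0.07 with cyclic loess and 0 with the authors' log2 values. It stood at -0.01 with each of the 75th percentile, the median, bright features and no scaling. The latter differ only by a constant for each array, which cancels here, so their equal values are not separate results. The number of members that passed was 0 under every scaling named in this paragraph.

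**Figure D2:**
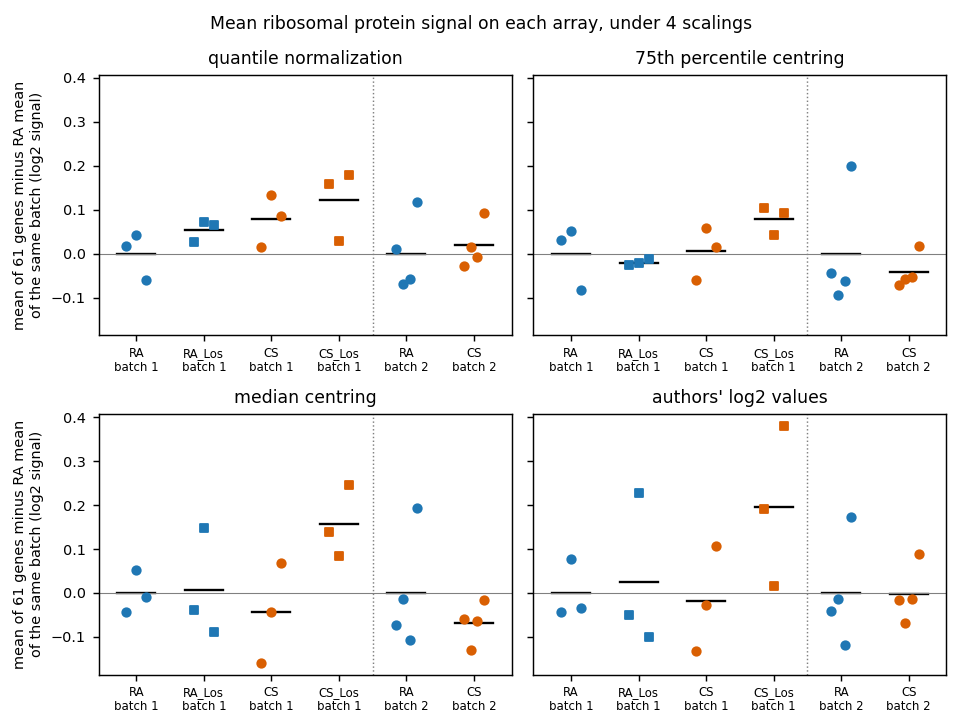
Mean log2 signal of the 61 ribosomal protein genes on each array, minus the mean of the RA arrays of the same batch, under 4 ways of scaling (points, arrays; bars, group means). With quantile normalization the 7 CS arrays lie from -0.03 to 0.13, and the RA arrays from -0.07 to 0.12.

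The mean over the 61 genes on each array showed the same. As a difference from the RA mean of its batch, it was 0.02, 0.04 and -0.06 in RA and 0.02, 0.13 and 0.08 in CS of batch 1. In batch 2 it was 0.01, -0.07, -0.06 and 0.12 in RA and -0.03, 0.02, -0.01 and 0.09 in CS. The groups overlapped in both batches, and the SD of this mean within groups was 0.064. Marker genes of blood cells did move with smoke on these arrays. Of 5 neutrophil genes 5 rose and 0 fell, of 5 B cell genes 3 rose, of 5 T cell genes 2 rose, and of 4 erythroid genes 3 fell. The mean neutrophil marker signal was 7.71 to 9.10 in RA and 9.26 to 11.13 in CS, and the mean erythroid marker signal 7.00 to 9.98 and 6.2 to 8.43. Their part in the members' values was not tested.

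Losartan in room air moved no ribosomal protein gene past the threshold. Of the 61 members 0 passed in RA_Los against RA of batch 1 (limma, 0.00786% of features), with 0 at an unadjusted p under 0.05 against 4.76% of features, and the median was 0.04. The highest statistics were those of Rpsa, Rpl28, Rps23rg1 and Rps10, and the lowest those of Rpl21, Rps19bp1, Rps15a and Rpl10. Rpsa gave 4.93, 4.87 and 4.77 in RA and 4.86, 5.67 and 5.36 in RA_Los, with 0 of the 3 RA arrays above background, so no size is given (adjusted p = 0.964). Rpl28 gave 12.58, 12.42 and 12.46 in RA and 12.75, 12.78 and 12.74 in RA_Los, a difference of 0.27 ± 0.15 (SE, n = 3 per group; limma, adjusted p = 0.964). Rpl28 was apart in the 2 groups and Rpsa was not. In all, 8 members lay wholly above RA (Rps10, Rpl4, Rplp0, Rpl28, Rpl5, Rpl37, Rps3a1 and Rpl36al) and 1 wholly below (Rpl21), against 4.82% and 6.1% of features. With 75th percentile centring the median of the members was -0.04.

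Losartan under smoke gave the same count. In CS_Los against CS of batch 1, 0 of 61 members passed (limma, 0% of features), and 1, Rplp0, had an unadjusted p under 0.05, against 5.94% of features. Rplp0 read 7.97, 7.94 and 8.03 in CS and 7.84, 7.75 and 7.31 in CS_Los, so every CS_Los array lay below every CS array. The difference was -0.35 ± 0.16 (adjusted p = 0.833), and Rplp0 was the only member apart in this comparison (4.39% of features were apart above and 6.22% below). A second, dimmer Rplp0 probe had the opposite sign (limma over all kept probes, adjusted p = 0.968). It was detected on only 3 arrays, so no size is given. The highest statistics were those of Rps16 (0.35 ± 0.18, adjusted p = 0.866), Rps23, Rpsa and Rpl13a. Rps16 is a small subunit protein whose tail reaches the decoding site. The other low statistics were those of Rps21, Rpl3, which lies at the peptidyl transferase centre, and Rpl22. The median of the members was 0.02 with quantile normalization, 0.18 with median centring and 0.19 in the authors' log2 values, where 58 of 61 lay above 0. Under median centring the median of all features was itself 0.09.

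In CS_Los against RA_Los, smoke under losartan, 0 of 61 members passed (limma, 0% of features), and the median was 0.01. At an unadjusted p under 0.05 there were 2, Rpl24 and Rps16, against 5.35% of features. Rpl24, which bridges the subunits, gave 10.96, 10.90 and 10.87 in RA_Los and 11.44, 11.07 and 11.93 in CS_Los, a difference of 0.57 ± 0.23 (adjusted p = 0.826). Rps16 gave 12.36, 12.39 and 12.29 in RA_Los and 12.67, 12.47 and 13.21 in CS_Los, a difference of 0.44 ± 0.18 (adjusted p = 0.830). In both genes the groups were apart, and CS_Los 3 was the highest array. Members wholly above RA_Los numbered 6 (Rpl10, Rpl21, Rps3, Rpl24, Rps16 and Rps15a) and members below 0, against 3.95% of features in each direction. The lowest statistics were those of Rplp0 (-0.27 ± 0.16, adjusted p = 0.949), Rpl22l1, Rps24 and Rps23rg1.

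The interaction of losartan with smoke, which tests whether losartan's difference is the same with and without smoke, passed for 0 members (limma, 0% of features). At an unadjusted p under 0.05 there was 1, Rplp0 (-0.49 ± 0.22, adjusted p = 0.693), against 7.17% of features. The highest statistic was that of Rpl21 (0.75 ± 0.36, adjusted p = 0.703). With 3 arrays per group the precision was lower than for smoke over both batches: 47 of 61 intervals lay inside 1.5-fold in RA_Los against RA, 44 in CS_Los against CS and 38 in CS_Los against RA_Los. The last of these shares its RA_Los arrays with the first and its CS_Los arrays with the second.

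**Figure D3:**
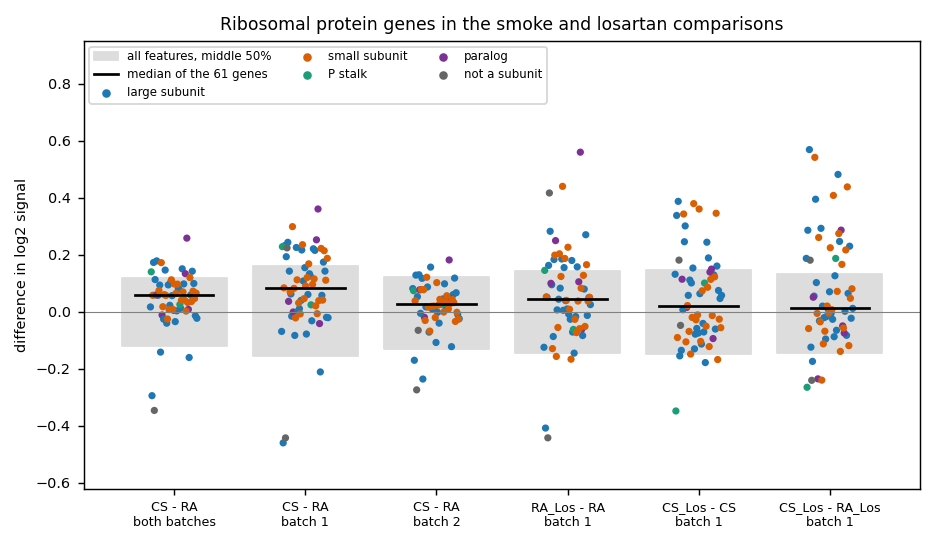
Differences in log2 signal for the 61 ribosomal protein genes (points, coloured by class) in the 6 smoke and losartan comparisons, with their median (line) and the middle 50% of all 12719 features (grey). The medians lie between 0.01 and 0.08, and 0 members passed the threshold in any of them.

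The members varied little between arrays of a group, close to other bright features. The median SD within groups was 0.15 for the members, 0.22 for all features and 0.16 for features of the brightest 10% that are no members, and these differences were not tested. The SD ran from 0.07 in Rps14, a small subunit protein at the platform, to 0.51 in Rpl3l. After group and batch means were removed, the median correlation between pairs of members was 0.12, against 0.0017 for all features and 0.016 for bright features. These pairs share their arrays and their scaling. The first principal component of the members carried 30.7% of this remaining variance, and 45 of 61 members had a loading above 0. Its lowest and highest scores, -7.96 and 7.55, belonged to CS_Los 2 and CS_Los 3, which are arrays of the same group.

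The batches, in contrast, separated many members. Over the 14 RA and CS arrays with smoke as a term, 26 of 61 were higher and 12 lower in batch 2 (limma, adjusted p under 0.05), and 59.3% of all features passed, 27.9% higher and 31.4% lower. The members' share, 38 of 61, was close to that background. The changes ran from -1.39 in Rpl22l1 to 1.13 in Rpl13a, with a median of 0.12 against -0.03 for all features. Of the small subunit genes 13 were higher and 6 lower of 23, and of the large subunit genes 10 and 4 of 29. What differed between the batches in handling is not given, so batch and any cause of these differences cannot be told apart.

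Rpl13a gave 8.26, 8.23 and 8.51 in RA of batch 1 and 9.65, 9.63, 9.37 and 9.64 in RA of batch 2. The CS arrays split in the same way, and the change was 1.13 ± 0.08 (limma, adjusted p = 8.61e-09). Rps2, of the small subunit's mRNA entry, gave 10.75, 10.71 and 10.27 in batch 1 and 11.58, 11.47, 11.81 and 11.92 in batch 2 of RA (1.08 ± 0.11, adjusted p = 3.33e-07). In both genes every array of batch 2 lay above every array of batch 1. Rps7 (1.05), Rps6 (1.00), Rpl36al (0.87), Rpl24 (0.84), Rps12 (0.79) and Rpl27 (0.76) followed, and all 8 passed as higher under every scaling tried. Members wholly above in batch 2 over the RA and CS arrays numbered 18, and members wholly below 5 (Rps23rg1, Rpl22l1, Rpl35a, Rps9 and Rps3a1), against 11.5% and 14.5% of features.

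Rpl22l1, the paralog of Rpl22, gave 10.50, 10.72 and 10.41 in RA of batch 1 and 9.07, 9.19, 8.89 and 9.49 in RA of batch 2. All batch 2 arrays were below all batch 1 arrays of RA and CS, and the change was -1.39 ± 0.10 (limma, adjusted p = 1.58e-08), though -0.21 and not past the threshold with no scaling. Rps23rg1 was also called lower, but it was detected on 0 of the 8 arrays of batch 2, so no size is given. Rps3a1 (-0.64), Rps9 (-0.60), Rpl14 (-0.46), Rpl35a (-0.46) and Rpl22 (-0.37) were lower with quantile normalization and higher with no scaling. Rps23 was called lower with quantile normalization and did not pass with no scaling. It was detected on 5 arrays, all of batch 1, so it has no size either. Rplp1 differed by 0.36 and passed, Rplp0 by -0.04, Rpl5 by -0.02 and Rpsa by 0.20 did not. In batch 1 Rpsa was detected on 0 of the 3 RA and 1 of the 3 CS arrays, so its values there lie near background. With no scaling 58 members were higher and 1 lower, with median centring 48 and 3, in the authors' log2 values 50 and 3, with the 75th percentile 24 and 14, with bright features 23 and 16 and with cyclic loess 28 and 10. The median of all features stood at 0.95, 0.26, 0.27, -0.25, -0.26 and -0.04 in these 6 fits, so these scalings also moved all features together. With no scaling Rps3a1 (0.59), Rps9 (0.60) and Rpl14 (0.66) lay above 0 and below that median of 0.95.

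**Figure D4:**
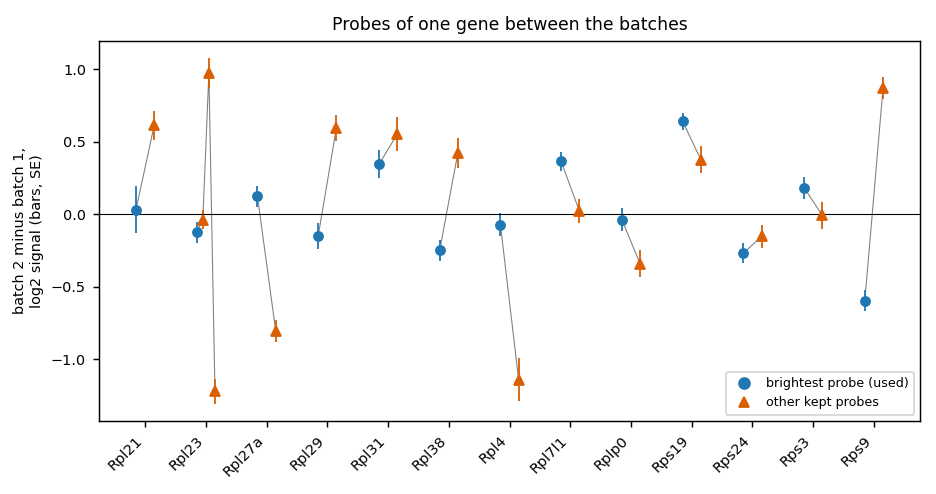
Difference between batch 2 and batch 1 in log2 signal for each probe of the 13 ribosomal protein genes with several kept probes (points; bars, SE; lines join the probes of a gene). The 2 Rps9 probes lie at -0.60 and 0.87, and the 4 Rpl23 probes from -1.22 to 0.97.

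Different probes of a gene often went different ways between the batches. Of the members, 13 had more than 1 kept probe, 28 probes in all, and in 6 of the 13 the probes had opposite signs. In Rpl23, Rpl38 and Rps9 probes passed in both directions (limma over all 17012 kept probes, of which 60.5% passed, 31.8% higher and 28.8% lower). Rps9, a small subunit protein that binds rRNA early in assembly, was lower by its brightest probe (-0.60 ± 0.07, adjusted p = 2.58e-06) and higher by the other (0.87 ± 0.08, adjusted p = 8.21e-08). The 4 probes of Rpl23, of the large subunit, gave -0.13, -0.04, 0.97 and -1.22. The gap between a gene's lowest and highest probe had a median of 0.58 and reached 2.20. For smoke the same gap had a median of 0.10. Of the 28 probes 1 passed for smoke, a second Rpl27a probe (-0.28 ± 0.08, adjusted p = 0.0243), while the brighter Rpl27a probe gave -0.03 (adjusted p = 0.871). Of all kept probes 11.1% passed for smoke, 5.23% higher and 5.85% lower.

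The 5 paralogs, genes related in sequence to a subunit gene, did not pass for smoke or losartan. Rpl3l replaces Rpl3 in heart and skeletal muscle. It read 7.05, 7.91 and 6.71 in RA, 8.52, 7.96 and 6.87 in RA_Los, 8.15, 7.17 and 7.44 in CS and 7.87, 7.69 and 7.65 in CS_Los of batch 1. It read 7.31, 6.58, 7.16 and 7.22 in RA and 6.81, 7.77, 6.94 and 7.48 in CS of batch 2. All groups overlapped, and RA_Los alone ran from 6.87 to 8.52. For smoke the change was 0.26 ± 0.21 (limma, adjusted p = 0.463), 0.14 without CS 1 and 0.38 without RA 2.

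The Rpl3l signal followed the heart muscle genes on the array. The mean log2 signal of 4 measured cardiac markers ran from 6.58 to 11.17, with 8.14 to 10.13 in RA, 6.58 to 11.17 in RA_Los, 8.63 to 10.32 in CS and 9.03 to 10.44 in CS_Los of batch 1, and 6.63 to 9.70 in RA and 6.76 to 10.32 in CS of batch 2. All 4 were detected in every group. Over the 20 arrays, with batch means removed, Rpl3l correlated with this mean at r = 0.84 (2-sided permutation test within batches, 100000 resamples, p = 2e-05, adjusted p = 0.00144) and rho = 0.86 (p = 1e-05, the smallest these resamples can give; adjusted p = 0.00072). It was 0.87 in batch 1 and 0.86 in batch 2, and 0.79 without RA 5 and RA_Los 3, the arrays farthest from the median of the cardiac genes. For Rpl3 the same correlation was -0.28 (permutation test, p = 0.232, adjusted p = 0.452). These are 2 of 72 relations, of 5 paralogs and 4 partner genes with 8 marker lists, computed after the values had been seen. Of the 72, that of Rpl3l with the cardiac markers alone passed by r, and by rho it passed together with that of Rpl22 and the endothelial markers.

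**Figure D5:**
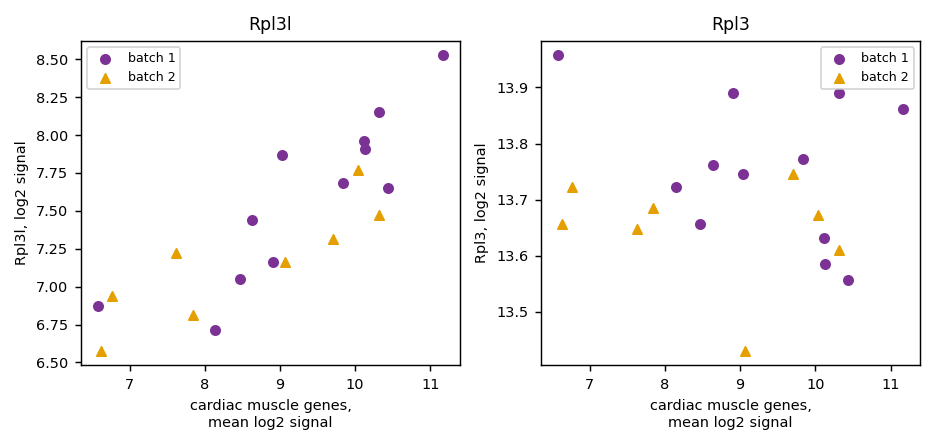
Log2 signal of Rpl3l (left) and Rpl3 (right) on each of the 20 arrays against the mean log2 signal of 4 heart muscle genes (points, arrays; shape and colour, batch). Rpl3l is higher where the muscle genes are higher in both batches (r = 0.87 and 0.86), and Rpl3 is not (r = -0.34 and -0.20).

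The other paralogs differed by -0.01 ± 0.10 (Rpl22l1), 0.01 ± 0.06 (Rpl7l1, a protein of ribosome assembly), 0.13 ± 0.09 (Rpl36al) and 0.06 ± 0.08 (Rps27l, a target of p53) between smoke and room air, with adjusted p from limma between 0.367 and 0.957. In RA_Los against RA they differed by 0.25, -0.06, 0.10 and 0.10, and in CS_Los against CS by 0.01, -0.09, 0.14 and 0.11. None of these values passed. Rpl36al read 11.72, 11.71 and 11.67 in RA and 11.75, 12.01 and 12.10 in CS of batch 1, which do not overlap, and 12.56, 12.54, 12.65 and 12.97 against 12.58, 12.72, 12.66 and 12.93 in batch 2, which do.

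Other lists of protein synthesis genes held calls for smoke, to be read against the 12.8% of all features that passed. Of 68 measured genes of mitochondrial ribosomal proteins, which translate the mitochondrial genome's mRNAs, 6 rose and 6 fell (limma). The largest were falls in Mrpl15 (-0.77 ± 0.10, adjusted p = 0.000115), Mrpl51 (-0.76 ± 0.11), Mrpl57 (-0.55 ± 0.12) and Mrps6 (-0.54 ± 0.08), and the list's median was 0.07. Of 71 ribosome biogenesis genes 5 rose and 2 fell, with Znhit6, a snoRNP assembly factor, at 0.75 ± 0.18 and Pes1, a large subunit assembly factor, at -0.40 ± 0.06 (adjusted p = 0.000666). Of 35 genes in the list of initiation factors 1 rose (Eif4e, the cap-binding protein, 0.35 ± 0.11) and 1 fell (-0.21 ± 0.06). The latter, Gspt1, is a release factor that the list also holds, and no initiation factor. Of 16 elongation and other translation genes 2 rose, Hnrnpa1 (0.47 ± 0.13) and the elongation factor kinase gene Eef2k (0.35 ± 0.10). The difference between these lists and the ribosomal proteins was not tested. Fau, which encodes a fusion of Rps30, was the only measured subunit gene outside the Rpl and Rps symbols, and it differed by 0.06 ± 0.07 (adjusted p = 0.663).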

How the data were processed

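The authors' deposited tables give, per the file headers, the signal intensity and detection p-value of each probe on Illumina mouse bead arrays, read with BeadStudio per the submitters' processing notes. The deposited log2 values are the log2 intensity after a shift that puts every array's median at 8, to within 0.0069. No source used here says whether BeadStudio had subtracted background. Of 25697 probes, 17012 (66.2%) were detected on 3 or more arrays and kept. Intensities were background-corrected (limma nec, offset 16), quantile-normalized and fitted with limma 3.58.1 in R 4.3.3, taking the brightest probe of each gene. p-values were Benjamini-Hochberg adjusted over 12719 features. Symbols came from the platform annotation (23141 probes with 1 symbol, 0 with several), and promoters from RefSeq (GRCm38.p6). Correlations used Python 3.11.15 and SciPy 1.17.1. The number of arrays limits the precision.

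The members, the gene lists and the rules for naming genes were chosen with earlier results of these data known. Per comparison, of members past the threshold the 8 highest and 8 lowest changes are named. Where fewer than 3 pass, the 4 highest and 4 lowest statistics are named. Rplp0, Rplp1, Rpsa, Rps6, Rpl5, the paralogs and the members that are no subunits are added, and from other lists at most 4 called genes. Rpl11 was not analysed here. Samples with the same replicate number in their descriptions mostly did not deviate together (22 pairs, r from -0.34 to 0.31, 3 above 0.1). The CS_Los titles carry other numbers. With groups this small, such values cannot tell whether the numbers pair the samples, and the main fits used no pairing. Alternatives covered background, scaling, filter, probe choice, the fit and each array left out.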

Additional observations from a re-analysis of the deposited data

Results flagged for a closer look

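In 3 of the 80 groups of 7 arrays tested (39 named genes and the mean of the members, in RA and in CS, as deviations from the batch mean), 1 array stood apart from the other 6. The gap to the nearest array was compared with the group's whole range, and chance flags about 1 in 20 groups. In CS, Rplp1 on CS 7 had a log2 signal of 15.13, which is -0.11 from its batch mean, and the next array was at -0.01 (gap 0.608 of the range). In RA, Rpl36al on RA 7 had 12.97, or 0.29 from its batch mean, with the next array at 0.02 (gap 0.616). In RA, Rps3a1, a small subunit protein at the platform, had 11.17 on RA 6, or -0.20, with the next array at -0.03 (gap 0.612).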

How the results depend on the processing

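Depth in reads does not apply to arrays, and the number of arrays limits what can be seen, above all for losartan. The count of members past the threshold was 0 in every smoke and losartan comparison and in both interactions under each alternative that was run on it (not every one applies to each comparison) and with each array left out. The medians of the members moved by more than the SD between arrays, or changed sign, with the scaling, since each scaling sets where an array's middle lies. With 75th percentile centring they were -0.0264 (CS against RA), -0.0407 (RA_Los against RA), 0.0979 (CS_Los against RA_Los), 0.0162 (CS against RA, batch 1) and -0.0414 (batch 2). With median centring they were -0.0624 (CS against RA), -0.0138 (RA_Los against RA), 0.177 (CS_Los against CS), 0.147 (CS_Los against RA_Los), -0.0333 (batch 1) and -0.0673 (batch 2). With no scaling they were -0.0315 (CS against RA), 0.110 (RA_Los against RA), 0.204 (CS_Los against CS), -0.0161 (batch 1) and -0.0262 (batch 2). With the authors' log2 values they were -0.0143 (CS against RA), 0.187 (CS_Los against CS), 0.143 (CS_Los against RA_Los) and -0.0133 (batch 1). Leaving out 1 array gave medians from 0.0381 to 0.0758 for CS against RA (lowest without RA 5), 0.0164 to 0.0690 for RA_Los against RA (lowest without RA_Los 3), -0.0043 to 0.0658 for CS_Los against CS (below 0 without CS 1 or CS_Los 3), -0.0048 to 0.0668 for CS_Los against RA_Los (below 0 without CS_Los 3), 0.0645 to 0.0960 for CS against RA in batch 1 and -0.0026 to 0.0671 in batch 2 (below 0 without CS 7 or RA 5).

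Between the batches the count of members past the threshold was 36 to 38 with 1 array left out, and 59 with no scaling. Of 4353 values of named members under the alternatives, 22 turned direction, all between the batches, mostly under scalings that move all features together (their median was 0.95 with no scaling, 0.27 in the authors' values and 0.26 with median centring). With no scaling these were Rps3a1 (0.588), Rps9 (0.600), Rpl14 (0.665), Rpl35a (0.755), Rpl22 (0.807), Rplp0 (1.17), Rpl5 (1.21) and Rpl3l (0.921). With the authors' log2 values they were Rps3a1 (0.0017), Rps9 (0.0175), Rpl14 (0.0267), Rpl35a (0.168), Rpl22 (0.211), Rplp0 (0.483) and Rpl5 (0.624). With median centring they were Rpl35a (0.0641), Rpl22 (0.116), Rplp0 (0.479) and Rpl5 (0.520). Rpsa turned to -0.517 with the 75th percentile and to -0.526 with bright features, and Rps9 to 0.137 with the mean of all kept probes. Among values that did not pass in either fit, 230 changed sign.

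With the replicate number as a block, 0 members passed in the smoke and losartan comparisons, and CS against RA gave 1333 features past the threshold in place of 1631, and batch 2 alone 354 in place of 701. Whether the numbers pair the samples is not known, and the block was not run between the batches, since the numbers lie within them. The fit of only the RA and CS arrays of batch 1, added after the data were examined, gave 0 members. Its median, 0.0835, is the same by construction, since the losartan arrays do not enter that difference.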

Other observations

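Of 4 pairs of a paralog and its partner gene, Rpl22l1 and Rpl22 moved against each other across the 20 arrays. With batch means removed, r was -0.68 (2-sided permutation test within batches, 100000 resamples, p = 0.00183, adjusted p = 0.00732 over the 4 pairs) and rho was -0.56 (p = 0.0132, adjusted p = 0.0526). It was -0.77 in batch 1 and -0.40 in batch 2, and -0.43 without RA_Los 2 and CS_Los 1, so much of it rests on those arrays. Endothelial markers went with Rpl22, at r = 0.67 and rho = 0.72 (permutation test, adjusted p = 0.0679 and 0.0299 over 72 relations). They went against Rpl22l1, at r = -0.65 and rho = -0.66 (adjusted p = 0.0718 and 0.0538). Of these values only the rho of Rpl22 passed. Only batch means were removed, so differences between the treatment groups enter these correlations. Within batches 1 and 2 r was 0.66 and 0.71 for Rpl22 and -0.64 and -0.69 for Rpl22l1, and without RA_Los 3 and CS_Los 2, farthest from the endothelial median, 0.71 and -0.75. Rpl22 went against macrophage markers at r = -0.67 (adjusted p = 0.0679; -0.81 in batch 1 and -0.19 in batch 2), and the part of these markers in the relation was not tested. On RA_Los 2 Rpl22l1 read 11.19, the highest of the 20 arrays, and Rpl22 10.06. The correlation was -0.07 for Rpl3l and Rpl3, 0.14 for Rpl36al and Rpl36a, and 0.37 for Rps27l and Rps27, none past the threshold (permutation test, adjusted p from 0.239 to 0.774). The pairs were tested after the values had been seen.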
